A study of Mus musculus with 3 samples.

Results

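The nuclear RNAs Malat1 and Neat1 and the host genes of small nucleolar RNAs (snoRNAs) were compared between C2C12 lines with Linc-RAM overexpression or knockdown and their control. The group was chosen by gene symbol: the snoRNA hosts Gas5, Snhg1, Snhg3, Snhg5, Snhg6 and Snhg8, the nuclear RNAs Malat1 and Neat1, the microRNA host Dleu2, and 2310015B20Rik, which is Linc-RAM itself. Of these 10 symbols, 9 were among the 22068 genes of the files. Snhg5 and its older names had no row, and it is not analysed here. The C2C12 line consists of mouse myoblasts, which fuse into myotubes in low serum. The libraries came from a line with a lentivirus carrying Linc-RAM (overexpression), a line with a lentivirus carrying a short hairpin RNA against Linc-RAM (knockdown), and a line with the empty vector (control), all selected with blasticidin and taken after 12 h in differentiation medium. Per the study's methods, Linc-RAM was cloned behind a CMV promoter, and the hairpin in a vector with a U6 promoter. The same empty vector line was the control for both. Effects of the vectors or of expressing a hairpin therefore cannot be told apart from those of Linc-RAM. Which of the hairpins the sequenced line carried, and whether a line was 1 clone, are stated in no source used here. Polyadenylated RNA of 1 library per line was sequenced, so no difference between lines has a replicate check and no test of the conditions was possible. In such bulk RNA, fewer cells with a transcript and less transcript per cell cannot be told apart.

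A snoRNA host gene is transcribed as a long precursor. Its introns release the snoRNAs, which guide chemical modification of ribosomal RNA, and its spliced exons are a noncoding RNA that is often degraded in the cytoplasm by nonsense-mediated decay. Malat1 lies in nuclear speckles, where splicing factors are stored, and Neat1 is the scaffold of paraspeckles, nuclear bodies that hold RNA-binding proteins. The mature end of Malat1 and that of the long Neat1 isoform are formed without a conventional poly(A) tail, whereas the short Neat1 isoform is polyadenylated. Linc-RAM is a muscle RNA that also encodes the micropeptide myoregulin.

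The starts of the snoRNA hosts are shown because such genes often begin with a run of pyrimidines, the 5′ TOP element, which the choice of genes did not use. Each window runs from 20 bases before to 30 bases from the annotated start onwards (RefSeq, GRCm38.p6, 5′ to 3′ of the transcribed strand), and capitals mark the first run of at least 5 C or T whose first base lies between 3 bases before the start and base 10 of the transcript.
Gas5: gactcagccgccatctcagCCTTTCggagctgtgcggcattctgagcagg
Snhg1: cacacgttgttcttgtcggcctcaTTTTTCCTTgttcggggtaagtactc
Snhg3: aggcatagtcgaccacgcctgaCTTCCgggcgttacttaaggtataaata
Snhg5: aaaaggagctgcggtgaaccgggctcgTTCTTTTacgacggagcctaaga
Snhg8: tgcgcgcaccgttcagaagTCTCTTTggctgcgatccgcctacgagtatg
Malat1: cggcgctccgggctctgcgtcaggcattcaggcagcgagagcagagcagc
Dleu2: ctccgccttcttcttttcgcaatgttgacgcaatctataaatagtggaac
The windows are chr1:161035146-161035195 on the plus strand for Gas5 (the second of its annotated starts), chr19:8723467-8723516 on the plus strand for Snhg1, and chr4:132353657-132353706, chr9:88522868-88522917, chr3:123508307-123508356, chr19:5802643-5802692 and chr14:61682344-61682393 on the minus strand for Snhg3, Snhg5, Snhg8, Malat1 and Dleu2. All 5 snoRNA hosts with an entry had such a run at a listed start, of 6 bases in Gas5, 9 in Snhg1, 5 in Snhg3, 7 in Snhg5 and 7 in Snhg8. The runs of Gas5 and Snhg8 began at base -1, the last base before the start, and crossed it. Those of Snhg1, Snhg3 and Snhg5 began inside the transcript, at bases 5, 3 and 8, so these transcripts do not begin with the run. The first listed start of Gas5 had none. Neither Malat1 nor Dleu2 had one, and the Linc-RAM gene had a run of 6. Of all 32851 promoters of this length, 24.6% held the feature. Its definition was set after these windows had been seen, and a match describes the letters only. Snhg6 and Neat1 had no entry.

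The files give RPKM, the reads of a gene scaled by its length and by the reads of its library. The read totals were estimated from low values that became whole reads, as 2105513 for overexpression, 1878146 for knockdown and 5130480 for the control. At these totals 14.9%, 16.3% and 18.4% of the low values tried were whole, against a median of 0% at nearby totals. By these estimates the overexpression and knockdown libraries held 41.0% and 36.6% of the control's reads. Of the 22068 genes, between 9082 and 9846 were listed at 0 in a library. The myoblast markers Myod1, Myf5, Des, Cdh15 and Itga7 were detected in every library, Des at 386, 145 and 291 RPKM in the overexpression, knockdown and control libraries. Ptprc of leukocytes and Epcam of epithelia were at 0 in all of them, and endothelial Pecam1 had 1 read, in the overexpression library. Intervals given below are exact 95% intervals from recovered reads. They cover counting error only and compare libraries, not conditions.

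Malat1 and Neat1 were abundant in all lines, the measured snoRNA hosts lay lower, and the remaining RNAs were near the limit of detection. Of the 9 RNAs in the files, 6 had a mean of at least 1 RPKM over the libraries (Gas5, Snhg3, Snhg8, Malat1, Neat1 and Dleu2). The other 3 were Snhg1, Snhg6 and Linc-RAM. As a mean over all libraries admits a gene that is high in only 1 of them, the 6 are not a sample of all members.

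**Figure D1:**
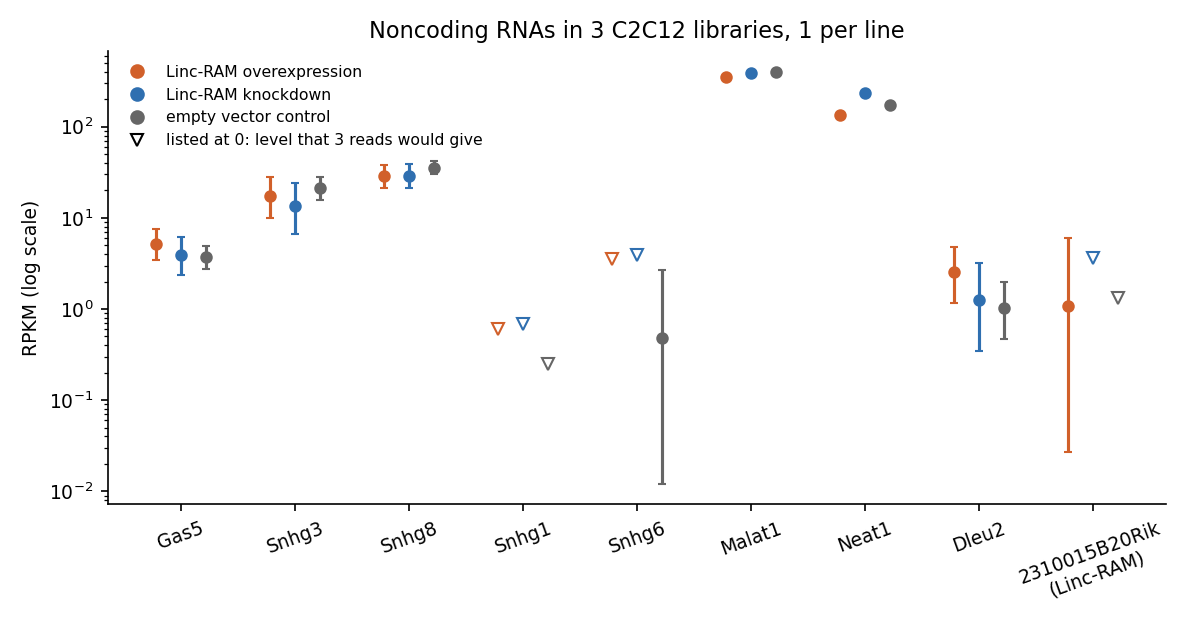
RPKM (log axis) of 9 noncoding RNAs in the Linc-RAM overexpression, Linc-RAM knockdown and control libraries, 1 library each. Bars are exact 95% Poisson intervals of the reads, and open triangles mark a value listed at 0, drawn at the level that 3 reads would give. Malat1 and Neat1 sit above 100 RPKM in every library, and Snhg1 and Linc-RAM sit at or near 0.

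Neat1 was lower with overexpression and higher with knockdown than in the control. It was at 134 RPKM in the overexpression library, 233 in the knockdown library and 174 in the control, from 895, 1388 and 2830 reads. Its ratio to the control was 0.771 with overexpression (95% interval 0.714 to 0.831) and 1.34 with knockdown (1.26 to 1.43). In the direct comparison, which does not use the control, overexpression was at 0.575 of knockdown (0.528 to 0.626), and the counting intervals of the levels did not overlap in any pair of libraries. Neat1 was thus the 128th most abundant gene with overexpression, the 43rd with knockdown and the 91st in the control.

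These ratios did not reach 2-fold, and intervals that leave out 1 were frequent among abundant genes. Of 183 genes with a mean of at least 100 RPKM, 59.0% had an interval that left out 1 for overexpression against control, 65.6% for knockdown against control and 67.8% for overexpression against knockdown. Among the same 183 genes, 18 had a lower ratio than Neat1 for overexpression against control, 10 had a higher ratio for knockdown against control, and 3 had a lower ratio for overexpression against knockdown. The last is a place in the ranking of these libraries, not a test.

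The model behind the Neat1 values bears on which isoform was measured. Neat1 lies on the minus strand of chromosome 19 of mm9 from 5824708 to 5845478, where GENCODE has 4 transcripts of 152 to 20771 nt and no overlapping gene. The smallest length at which its RPKM gave whole reads in all libraries was 3177 nt, and the longest transcript did not give whole reads. The values therefore do not measure the long isoform on its own. The intervals of Neat1 depend on this length. The annotated 152 nt did not give whole reads either, and rounded there the reads would be 43, 66 and 135. The intervals of the ratio to the control would then be 0.537 to 1.10 with overexpression and 0.979 to 1.81 with knockdown. Reads of the short isoform and of the matching part of the long isoform cannot be told apart.

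Malat1 was the most abundant RNA of the group and differed little between lines. It was at 351 RPKM with overexpression, 391 with knockdown and 398 in the control, from 5153, 5133 and 14268 reads, which was 0.245% (Clopper-Pearson 95% interval 0.238 to 0.252), 0.273% (0.266 to 0.281) and 0.278% (0.274 to 0.283) of the reads of each library. The overexpression library was the lowest, and its interval did not overlap those of the other libraries. The ratio to the control was 0.880 with overexpression (0.852 to 0.909) and 0.983 with knockdown (0.952 to 1.01), and overexpression was at 0.895 of knockdown (0.861 to 0.931). Of the 183 abundant genes, 50 had a lower ratio than Malat1 for overexpression against control, and for knockdown against control 62 had a higher one. Malat1 covers chromosome 19 of mm9 from 5795690 to 5802671 on the minus strand, and its reads were whole at the annotated 6982 nt. GENCODE has Gm20417 on the opposite strand. The sources used here do not say whether the counting used strand, so reads of Malat1 and Gm20417 cannot be told apart.

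**Figure D2:**
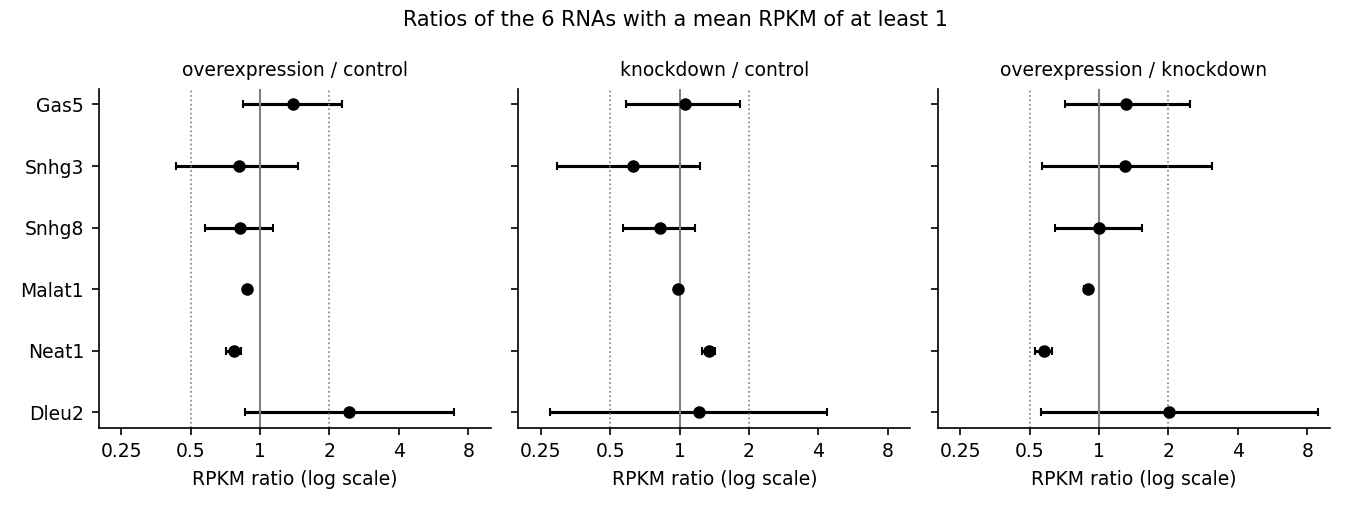
Ratios of RPKM (log axis) of the 6 noncoding RNAs with a mean of at least 1 RPKM, for Linc-RAM overexpression against control, knockdown against control, and overexpression against knockdown. Points are ratios and bars are exact 95% counting intervals from reads. Neat1 lies at 0.771, 1.34 and 0.575, and the bars of Gas5, Snhg3, Snhg8 and Dleu2 cross 1 in all comparisons.

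The snoRNA hosts were measured at much lower depth, and none of their differences exceeded counting error. Gas5, a growth-arrest RNA whose introns hold snoRNAs, was at 5.21 RPKM with overexpression, 3.96 with knockdown and 3.74 in the control, from 28, 19 and 49 reads. Overexpression was at 1.39 of the control (0.843 to 2.26), knockdown at 1.06 (0.589 to 1.83), and overexpression at 1.31 of knockdown (0.708 to 2.49). The overexpression library had the highest value, and the intervals of all 3 levels overlapped. GENCODE annotates 25 transcripts of Gas5 of 346 to 2556 nt on chromosome 1 of mm9 (162964553 to 162968670, plus strand), with 9 nested snoRNAs and Zbtb37 on the opposite strand. The RPKM gave whole reads at 2554 nt.

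Snhg8 was the highest of the hosts, at 29.0 RPKM with overexpression, 29.2 with knockdown and 35.5 in the control (48, 43 and 143 reads). Both lines were below the control, at 0.818 (0.577 to 1.14) with overexpression and 0.821 (0.570 to 1.16) with knockdown, and they differed from each other by a ratio of 0.996 (0.646 to 1.54). Snhg8 hosts a snoRNA in its intron, and GENCODE as used here has no entry of that name.

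Snhg3, host of the snoRNA pair Snora73a and Snora73b, was at 17.4 RPKM with overexpression, 13.4 with knockdown and 21.4 in the control, from 16, 11 and 48 reads. The control was again the highest. The ratio was 0.812 (0.431 to 1.46) with overexpression and 0.626 (0.293 to 1.22) with knockdown, and overexpression was at 1.30 of knockdown (0.565 to 3.09). Snhg3 lies on chromosome 4 of mm9 from 131903929 to 131909601 on the minus strand, and overlaps Rcc1 on the same strand and Gm17300 on the opposite one, so their reads may be shared.

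Snhg1 and Snhg6 were at or near 0. Snhg1 was listed at 0 in all libraries. At its shortest annotated transcript of 2339 nt, 3 reads would have been 0.609 RPKM with overexpression, 0.683 with knockdown and 0.250 in the control. A listed 0 may be a failed estimate here, since 5 of 73 ribosomal protein genes, such as Rps29, were also at 0 in every library, so Snhg1 cannot be called silent. Snhg6 had 1 read, in the control (0.479 RPKM), and the level of 3 reads was 3.50, 3.92 and 1.44 RPKM in the overexpression, knockdown and control libraries, so that a difference between lines could not have been seen with so few reads.

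Mature snoRNAs, which lack a poly(A) tail, were almost undetected in these polyadenylated libraries. Of 114 rows named as snoRNAs or Cajal body RNAs, 17 were above 0 in any library, 7 with overexpression, 9 with knockdown and 12 in the control. Of the 9 snoRNAs inside Gas5, Snord47 alone had a row and was at 0 throughout. Of the 8 inside Snhg1, Snord22 had 0, 1 and 3 reads (0, 4.23 and 4.64 RPKM) in the overexpression, knockdown and control libraries, whereas its host was listed at 0. The rows with the most reads were Snord123 with 28, 39 and 119 reads, Snora81 with 0, 3 and 6, and Snora70 with 0, 1 and 6. Snord123 gave whole reads only from 6161 nt, far longer than a snoRNA.

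Dleu2, a long host RNA with microRNAs in an intron, was the only measured RNA of the group at least 2-fold from the control. It was at 2.52 RPKM with overexpression, 1.26 with knockdown and 1.04 in the control, from 9, 4 and 9 reads. The overexpression library was the highest, at 2.44 of the control (0.857 to 6.93) and 2.01 of knockdown (0.560 to 8.92), and knockdown was at 1.21 of the control (0.273 to 4.35). All intervals include 1, so the fold rests on too few reads to set the libraries apart.

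The microRNAs of Dleu2 are shown because their 5p arms share a seed, the bases by which a microRNA pairs with its targets (capitals, bases 2 to 8; RefSeq, GRCm38.p6).
mmu-miR-15a-5p: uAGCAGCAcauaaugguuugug
mmu-miR-16-5p: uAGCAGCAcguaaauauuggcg
They lie at chr14:61632075-61632096 and chr14:61631936-61631957 on the minus strand. Their precursor rows, Mir15a and Mir16-1, were at 0 in every library, and such short RNAs without a poly(A) tail are largely lost from polyadenylated RNA. The nearby Trim13, a ubiquitin ligase gene, was at 2.80 RPKM with overexpression, 3.45 with knockdown and 2.30 in the control. Of the 8 genes listed for the Dleu2 locus, which include Dleu2, 3 were measured. Dleu2 alone passed 2-fold with overexpression, where 7.17% of all genes did, and 0 did with knockdown, where 7.63% did. The median log2 ratio was 0.28 for overexpression and 0.59 for knockdown, beside 0.00481 and -0.01 over all genes. Trim13 had 10, 11 and 20 reads and Rnaseh2b 3, 4 and 6, so the medians rest on few reads.

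The Linc-RAM row gave no check of the labels. It had 1 read with overexpression (1.07 RPKM) and none with knockdown or in the control, where 3 reads would have been 3.61 and 1.32 RPKM. The value with overexpression was under the level of 3 reads in its own library, 3.22 RPKM, and also under that of the control. The gene has 3 exons on chromosome 10 of mm9 from 69667432 to 69682458, plus strand. These RPKM values therefore neither support nor contradict the labels. The study also measured Linc-RAM by RT-qPCR in overexpressing and knockdown cells, which is not analysed here. Myod1, a master factor of myogenesis, was at 34.1 RPKM with overexpression, 9.76 with knockdown and 16.7 in the control. Its ratios to the control were 2.04 and 0.584, whose intervals left out 1, as did 18.0% and 19.4% of those of all genes. Des and Cdh15 had the same directions, with intervals that left out 1. Itga7 was higher with overexpression (3.32) but at 1.05 with knockdown (0.853 to 1.29), and both Myf5 intervals include 1. These markers are no check of the labels either.

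Across the 6 measured RNAs the count past 2-fold was small. With overexpression, 1 of 6 was at least 2-fold from the control (Dleu2, higher), where 7.17% of 10172 genes were, 3.70% higher and 3.47% lower. Intervals left out 1 for 2 of 6 (Malat1 and Neat1, both lower), where they did for 18.0% of all genes, 9.42% above and 8.57% below. With knockdown, 0 of 6 was 2-fold from the control, where 7.63% of genes were, 3.44% higher and 4.19% lower, and 1 of 6 had an interval that left out 1 (Neat1, higher), where 19.4% did, 9.01% above and 10.4% below. Between overexpression and knockdown, 1 of 6 was 2-fold apart (Dleu2, higher with overexpression), where 11.2% were, 6.08% higher and 5.09% lower. Intervals left out 1 for 2 of 6 (Malat1 and Neat1, lower with overexpression), where they did for 17.9%, 9.74% above and 8.15% below. Both comparisons with the control share that library. The 2 RNAs with most reads were those whose intervals left out 1.

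The median log2 ratio of the 6 was -0.24 for overexpression against control, 0.03 for knockdown against control and 0.18 for overexpression against knockdown, beside 0.00481, -0.01 and 0.02 over all genes compared. With overexpression the ratio of Gas5 was 1.39 and those of Snhg3 and Snhg8 were 0.812 and 0.818, and as all 3 intervals include 1, no direction was established for any of these hosts.

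**Figure D3:**
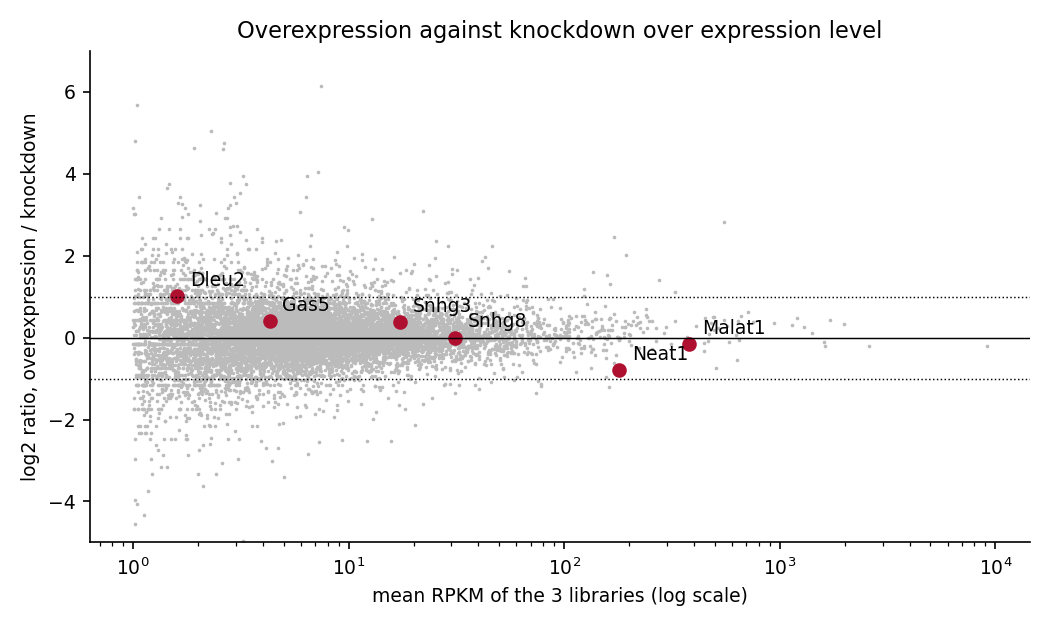
The log2 ratio of RPKM, Linc-RAM overexpression over knockdown, against the mean RPKM of the 3 libraries (log axis), for 10127 genes above 0 in both (small points) and the 6 measured noncoding RNAs (named). The spread narrows as expression increases, Neat1 at -0.80 sits below most genes of its level, and Dleu2 at 1.01 sits among genes of low level with a wide spread.

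The genes whose pattern was nearest to each of the main RNAs were taken by Euclidean distance in the log2 ratios of overexpression and of knockdown to the control, among 3288 genes with a mean of at least 10 RPKM and 3 libraries. For Neat1 these were Tef at a distance of 0.0170, Fcgrt at 0.0575 and Nr1d2 at 0.0583. Tef was at 20.5 RPKM with overexpression, 35.0 with knockdown and 26.3 in the control, and Fcgrt at 19.4, 32.8 and 24.2. For Malat1 they were Epb4.1l3 (0.00402), Faf2 (0.00883) and Fbln2 (0.0108), and for Gas5 Ddit3 (0.00972), Ociad1 (0.0228) and Stk25 (0.0274). With only a pair of ratios per gene, near neighbours are plentiful. The intervals of both Gas5 ratios (0.843 to 2.26 and 0.589 to 1.83) include 1, so its neighbours cannot be told apart from a match to counting error. Gas5, at a mean of 4.30 RPKM, also lay below the level of the genes searched.

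The partners of these RNAs were mostly measured with less difference than 2-fold. Of the other noncoding snoRNA hosts, 4 of 19 listed were measured, with a median log2 ratio of 0.26 with overexpression and -0.26 with knockdown, and in each comparison 1 gene above and 1 below the control by 2-fold or more, beside 7.17% and 7.63% of all genes past 2-fold in either direction. Snhg12 was at 21.2, 18.5 and 16.1 RPKM in the overexpression, knockdown and control libraries, and 1500012F01Rik at 7.08, 7.21 and 3.43, with intervals that include 1. Snhg4 was at 1.65, 0.925 and 3.89 RPKM, from 4, 2 and 23 reads. Knockdown was at 0.238 of the control (0.0271 to 0.961) and overexpression at 0.424 (0.107 to 1.24), an interval that includes 1. Among the protein-coding snoRNA hosts, 29 of 31 were measured, with medians of 0.35 and 0.12. The upper quartile of all genes with overexpression was 0.285. With overexpression 1 of 29 was past 2-fold from the control, beside the same 7.17%, and with knockdown 0 was, beside 7.63%. The 1 gene was Rplp2, listed at 0 with overexpression against 9 reads in the control, and its interval (0 to 1.23) includes 1. Eef2, the elongation factor, was at 665, 546 and 503 RPKM, and the chaperone gene Hspa8 at 279, 293 and 228.

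The proteins that assemble snoRNPs, the particles of a snoRNA and its proteins, had a median of 0.26 with overexpression and -0.15 with knockdown in 18 measured of 19, with 1 gene 2-fold lower with overexpression (Pih1d1) and 3 with knockdown (Pih1d1, Ruvbl2 and Znhit3), beside 3.47% and 4.19% of all genes. The intervals of Pih1d1 in both comparisons and of Ruvbl2 with knockdown include 1, from 2 and 1 against 11 reads and from 3 against 18 reads. Nhp2l1, which binds box C/D snoRNAs, was at 69.1, 59.7 and 61.4 RPKM, and Nop10 of box H/ACA particles at 24.6, 21.5 and 24.1. Znhit3, an assembly factor, was at 3.38, 1.08 and 4.96 RPKM, and knockdown was at 0.219 of the control (0.0251 to 0.876) from 2 against 25 reads. In the direct comparison, 5 of the 18 exceeded knockdown by 2-fold or more and 0 fell short of it by as much, beside 6.08% and 5.09% of all genes. The 5 were Nop58, Nhp2, Gar1, Ruvbl2 and Znhit3, with Nhp2 at 24.1 RPKM with overexpression against 11.1 with knockdown and Gar1 at 10.1 against 4.19. The intervals of Nhp2 (1.28 to 3.79) and Gar1 (1.13 to 5.58) left out 1, whereas those of Nop58 (0.951 to 7.83, 17 against 6 reads), Ruvbl2 (0.864 to 18.3, 11 against 3 reads) and Znhit3 (0.594 to 30.8, 7 against 2 reads) include it.

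The paraspeckle proteins, which Neat1 binds, had medians of -0.06 and 0.08 in 13 measured of 14, with 1 gene past 2-fold with overexpression (lower) and 0 with knockdown, beside 3.47% of all genes lower with overexpression and 7.63% past 2-fold with knockdown, so both counts are near the share of all genes. Nono, a core paraspeckle protein, was at 96.6, 99.5 and 91.2 RPKM, and Hnrnpk at 57.1, 52.2 and 45.9. Zc3h6 was at 0.676, 1.62 and 1.78 RPKM, with a ratio of 0.379 with overexpression (0.144 to 0.847) from 7 against 45 reads. Nuclear speckle and splicing proteins had medians of 0.02 and 0.11 in all 16, with U2af1, a splice-site factor, the 1 gene that was 2-fold higher with overexpression (3.70% of all genes), at 9.75, 6.56 and 3.80 RPKM (2.56, 1.30 to 5.08). Srrm2, a scaffold of speckles, was at 57.8, 64.4 and 64.2 RPKM, and Srsf2 at 51.2, 47.8 and 47.2.

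The factors of nonsense-mediated decay, which degrades spliced snoRNA host RNA, showed 0 of 12 measured (15 listed) past 2-fold in either comparison with the control, with medians of 0.02 and -0.06. Over all genes 7.17% and 7.63% were, so a count of 0 among 12 is near that share. Magoh was at 22.7, 14.9 and 12.8 RPKM, and Casc3 at 10.9, 11.1 and 10.7. Among other long noncoding RNAs, 11 of 32 were measured, with medians of -0.12 and 0.08 and 1 gene past 2-fold, lower with knockdown, as were 4.19% of all genes. That gene was H19, an imprinted RNA that is abundant in muscle precursors, at 845, 120 and 697 RPKM, so that knockdown was at 0.172 of the control (0.158 to 0.187). Xist, the RNA of X inactivation, was at 78.2, 97.9 and 56.0 RPKM.

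**Figure D4:**
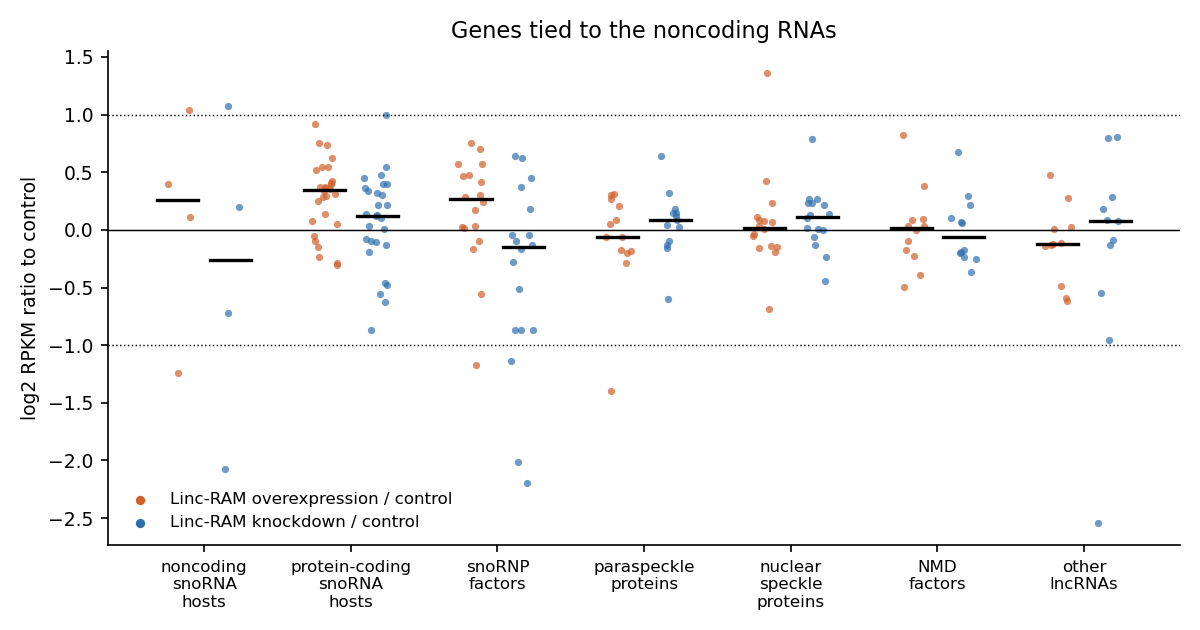
Log2 ratios of RPKM to the control with Linc-RAM overexpression and with knockdown, for 7 lists: noncoding and protein-coding snoRNA hosts, snoRNP factors, paraspeckle and nuclear speckle proteins, nonsense-mediated decay factors and other long noncoding RNAs. Each point is a gene with a mean of at least 1 RPKM that was above 0 in all 3 libraries, black lines are medians of the plotted points, and dotted lines mark 2-fold. Most genes lie within 2-fold, and H19 with knockdown is the lowest point of these 7 lists at -2.54 (the stress-linked list is not drawn).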

How the data were processed

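The authors deposited 1 RPKM value per gene and library, made from polyadenylated RNA. TopHat placed the reads on the mm9 genome at its default settings (the submitters' processing notes give 1.4.1), and DEGSeq gave the coverage of each gene. No source used here states the gene models, the use of strand, or how shared and multiply mapped reads were counted. The members and gene lists were chosen with earlier results of these data known. RPKM values were compared as deposited, without a pseudocount, for genes with a mean of at least 1 RPKM, and 2-fold was the threshold. Read totals were estimated as the smallest at which the share of whole low values was at least 0.85 of the best, then refined. Reads per gene were the whole number at an annotated length (GENCODE, 23.6% of 10172 genes). Otherwise the smallest length from 200 nt (50 nt for small RNAs) was used, with a tolerance of 1e-05 in both cases. Reads at a smallest length may be too low, which widens the intervals. The read recovery was tested on simulated data, where the reads of 96.3% of 925 genes were exact. The simulation gave an annotated length to a larger share of genes than 23.6%. Its result therefore need not hold for genes at a smallest length, such as Gas5, Snhg8, Neat1 and Dleu2. Named were all members, from each list the 2 most abundant genes and those at least 2-fold from the control whose interval left out 1 (at most 4), the 3 nearest patterns to Gas5, Malat1 and Neat1, and the 3 snoRNA rows with most reads; others were chosen after their values were seen. Genes were compared in Python 3.11.15 with numpy 2.4.6 and scipy 1.17.1. With 1 library per condition, no test was made.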

Additional observations from a re-analysis of the deposited data

How the results depend on the processing

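No paired analysis was possible because each condition had 1 library, and no replicate could be left out. The median log2 ratios ranged from -0.30 to -0.23 (overexpression against control), -0.15 to 0.06 (knockdown against control) and -0.08 to 0.18 (overexpression against knockdown), so the last 2 changed sign, both with a minimum mean of 5 RPKM. The count past 2-fold with overexpression, 1, became 0 with 1 RPKM added, 0 with a minimum of 5 RPKM and 3 with no filter. With knockdown, 0 became 1 at 1.5-fold and 1 with no filter. For overexpression against knockdown, 1 became 2 at 1.5-fold, 2 with no filter, and 0 with 1 RPKM added, with median-ratio scaling, with upper quartile scaling and with a minimum of 5 RPKM. Genes added by no filter had at most 1 read in a library. Reads were also taken at the annotated length that brought them closest to whole numbers, whatever its distance from the length used above. The intervals that left out 1 then fell to 1 for overexpression and 0 for knockdown against control. That length is 152 nt for Neat1, far from 3177 nt, and its reads there were not whole and were rounded to 43, 66 and 135. The fall therefore rests on a length that the Neat1 values did not match. Depth limits all hosts: the median reads per gene were 37, 32 and 88 in the overexpression, knockdown and control libraries.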

Other observations

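Of 7 transcripts linked to stress and to nonsense-mediated decay, 3 were at least 2-fold lower with overexpression and the same 3 with knockdown. Over all genes 3.47% and 4.19% were, and both comparisons share the control library. The list was chosen with earlier results of these data known, so its counts beside these shares are not a test of the list. Asns, asparagine synthetase, was at 2.71 RPKM with overexpression, 2.49 with knockdown and 14.1 in the control. Chac1, a glutathione-degrading enzyme, was at 2.42, 1.36 and 11.3 RPKM, and Trib3, a pseudokinase, at 0.926, 0.260 and 2.95. Atf4, the transcription factor upstream of these genes, was at 85.4, 81.8 and 109 RPKM, and Gadd45a at 21.0, 21.3 and 17.7. Ddit3, at 13.6, 10.4 and 9.85 RPKM, and Gadd45b, at 7.13, 10.9 and 6.62, were not below the control in either comparison. The list medians were -0.35 and -0.41 on the log2 scale.

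Of 10 small structured nuclear RNAs, Rmrp alone was measured. It reached a mean of 1 RPKM only through the knockdown library, so its high ratio there is partly a result of that filter. It had 0, 12 and 1 reads (0, 23.2 and 0.709 RPKM) in the overexpression, knockdown and control libraries, and the ratio of knockdown to control was 32.8 (4.85 to 1401). The interval covers counting error only, and the control value rests on 1 read.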
